A study of Mus musculus with 8 samples.

Results

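DNA replication and S phase genes encode the proteins that license origins, unwind and copy DNA, supply nucleotides and control entry into S phase. The 41 genes described here were listed by function, and each was read from 1 probe set, the one with a single gene symbol and the highest mean signal over all 8 arrays. A probe set of this kind was found for 40 of the 41, among 18193 genes in all. Chaf1a is not analysed here. All 40 passed the filter on dim probe sets, as did 11798 genes in all. Splenic B cells (MACS-purified mature B cells) came from 12-week-old mice of the strain C57BL/6. Non-B cells were removed magnetically and total RNA (6 µg) was labelled. The groups were irf4-/- (Irf4 null, 4 arrays) and irf4+/+ littermates (wild type, 4 arrays), with no treatment, and 1 sample was hybridised per array. The labels name no Cre line or promoter, and they do not say whether an array holds 1 mouse or a pool, so p-values reflect only how these samples vary, which may be technical. Signals are MAS5 intensities on a linear scale.

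A cell prepares for S phase in G1, when the origin recognition complex, Cdc6 and Cdt1 load the Mcm2-7 helicase onto origins. Cyclin-dependent kinases then release E2F transcription factors from their repressors and, with Cdc45 and the GINS complex, switch the helicase on. Most mature splenic B cells are resting, and they enter the cycle after antigen, T cell help or microbial ligands, so RNA of these genes in a preparation comes from cycling cells of any type as well as from a basal level in resting cells. Because RNA was taken from bulk cells, fewer or more cycling cells and less or more RNA per cell cannot be told apart.

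Irf4 itself read 2035, 1720, 1779 and 2341 on the wild-type arrays and 285, 259, 244 and 315 on the Irf4 null arrays, and the groups did not overlap. Where these probes lie relative to the deletion was not looked at. B cell markers were high on all 8 arrays, with a mean over 9 genes of 12.58 to 12.95 on the log2(signal + 16) scale. Of the 9, Fcer2a alone passed the test at an adjusted p below 0.05, and it was lower in Irf4 null (limma, adjusted p = 0.003). It read 6431 to 7880 on the wild-type arrays and 2486 to 4402 on the Irf4 null arrays. Of all genes tested, 1.7% were lower at that threshold. The arrays also split by sex-linked RNA. Xist, expressed from the inactive X chromosome of females, read 17119 to 19652 on wild-type arrays 1, 3 and 4 and Irf4 null array 1 (called Xist-high here). It read 49.2 to 94.8 on the remaining arrays, wild-type 2 and Irf4 null 2, 3 and 4 (Xist-low). Eif2s3y, a gene of the Y chromosome, read 3.31 to 25.4 on the Xist-high arrays and 3216 to 4530 on the Xist-low arrays. The split thus reads as one of sex, which the labels do not give, and it is unbalanced between the genotypes. Wild-type array 2 stood apart from the other wild-type arrays in the same way for markers of other blood cells. The mean of 60 such markers (log2) was 7.84, 9.38, 8.07 and 7.99 on wild-type arrays 1 to 4 and 8.28, 9.41, 9.64 and 8.90 on Irf4 null arrays 1 to 4. Results are therefore also given without wild-type array 2, with a term for the Xist split, and within the Xist-high and the Xist-low arrays.

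Most replication genes had a higher mean in Irf4 null, by amounts that did not pass the test. Of the 40 only Pole, the catalytic subunit of the leading-strand polymerase epsilon, passed the test. Of 40 members 33 had a log2 fold change (Irf4 null minus wild type) above 0, which 54.6% of all genes tested had. The median over the members was 0.32, against 0.025 over all 11798 genes tested. At an adjusted p below 0.05 (limma, adjusted over all 27022 probe sets tested) 1 member was higher and none lower. That is close to the background, since 2.67% of all genes were called higher and 1.7% lower (2.01% and 1.51% of all probe sets). Before adjustment 24 members had a p below 0.05 upward and none downward, where the background was 11.9% and 8.48%. The arrays' own medians over the members had an SD of 0.17 within genotypes. For single members the median SD of log2 values was 0.24 within wild type and 0.21 within Irf4 null.

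The size of this difference moved with the array split. Relative to the wild-type mean, the median over the 40 members was -0.075, 0.23, -0.17 and 0.089 on wild-type arrays 1 to 4, and 0.11, 0.46, 0.41 and 0.37 on Irf4 null arrays 1 to 4 (log2). Wild-type array 2 was thus the highest wild-type array and Irf4 null array 1 the lowest Irf4 null array. Array 2 gave the highest wild-type signal for 27 of 40 members (67.5%), against 31.8% of all genes tested. Irf4 null array 1 gave the lowest Irf4 null signal for 30 members (75.0%), against 25.4% of all genes.

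With a term for the Xist split in the model (the Xist-high term) the members' median was 0.20, and no member was called (limma; 5 of 40 had an unadjusted p below 0.05 upward). The background was then 1.97% of genes called higher, 1.1% called lower, and 9.71% with an unadjusted p below 0.05 upward. In the Xist-high arrays, where Irf4 null array 1 stood against 3 wild-type arrays, the median was 0.15, and 7 members had an unadjusted p below 0.05 upward. In the Xist-low arrays, with 3 Irf4 null arrays against wild-type array 2, the median was 0.19, and 5 members did. The background for such an unadjusted p was 7.76% and 7.16%. None was called in either (limma), where 1.01% and 0.746% of all genes were called higher and 0.339% and 0.517% lower. In these within-split fits the single array of a genotype is assumed to vary like the others. Without wild-type array 2 the median was 0.38 and 12 members were called higher (30.0%), against a background of 7.08%. Those called were Cdc6, Mcm10, Gins2, Pole, Lig1, Rrm2, Tk1, Dut, Uhrf1, Ccne1, Ccne2 and E2f8. That fit has no Xist-low wild-type array left, so genotype and the Xist split are largely confounded in it. Xist itself was called lower in Irf4 null there (-5.78; limma, adjusted p = 0.0456). Leaving out Irf4 null array 1 gave 2 calls (background 2.21%). That fit has no Xist-high Irf4 null array left, so genotype and the Xist split are largely confounded in it too. Leaving out Irf4 null array 2, 3 or 4 gave none (1.67%, 2.02% and 1.47%), nor did leaving out wild-type array 4 (1.74%), and leaving out wild-type array 1 or 3 gave 1 (1.6% and 1.84%). With arrays weighted by their spread in the fit (array weights), 8 members were called higher, against a background of 5.37%.

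**Figure D1:**
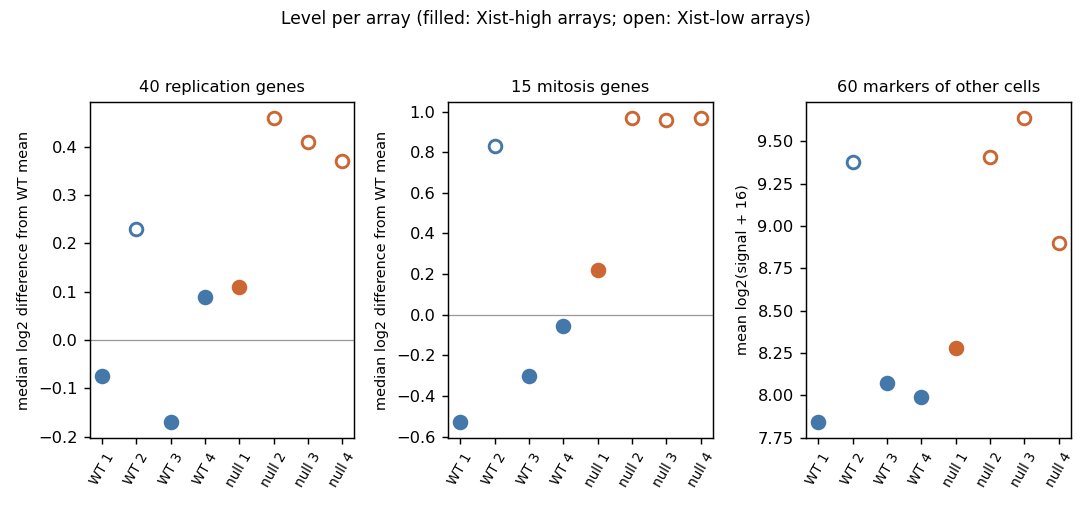
Level per array for the 40 replication genes tested (left, median log2 difference from the mean of the 4 wild-type arrays), 15 mitosis genes (middle, same scale) and 60 markers of other blood cells (right, mean log2(signal + 16)). Each point is 1 array, blue for wild type and orange for Irf4 null, filled for Xist-high and open for Xist-low. The open wild-type point lies above the filled ones in all 3 panels, and the filled Irf4 null point lies below the open ones.

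Markers of several other cell types moved with the same split. The 12 neutrophil markers tested averaged 7.67 to 8.85 (log2) on the Xist-high arrays and 9.77 to 10.96 on the Xist-low arrays. The 11 monocyte and macrophage markers averaged 8.13 to 8.34 and 9.01 to 9.85, the 8 NK cell markers 7.72 to 8.56 and 9.29 to 9.97, and the 5 dendritic cell markers 7.02 to 7.23 and 7.43 to 8.20. The 9 T cell markers averaged 6.91 to 7.86 and 7.92 to 10.02, with wild-type array 2 (7.92) next to wild-type array 3 (7.86). With genotype in the fit, 8 neutrophil, 7 monocyte and macrophage and 6 NK cell markers were called higher in Xist-low arrays. Of the T cell and dendritic cell markers 1 each was called so (limma; background 2.92%). The 9 B cell markers ran the other way, at 12.78 to 12.95 and 12.58 to 12.72. Erythroid markers (9 tested) overlapped between the splits, at 8.50 to 9.34 and 8.38 to 10.65, and so did 6 platelet markers, at 8.06 to 9.18 and 8.64 to 8.92. By genotype the platelet markers averaged 8.06 to 8.69 in wild type and 8.64 to 9.18 in Irf4 null. Of the lists of other blood cells, 1 NK cell and 1 platelet marker were called higher in Irf4 null (background 2.67%). These were Prf1 (log2 fold change 1.33; limma, adjusted p = 0.0122) and Ppbp (0.81; adjusted p = 0.0415). With the Xist-high term Prf1 was 0.99 (adjusted p = 0.0166) and Ppbp 0.90 (adjusted p = 0.055). Mpo, chosen after its values were seen because dividing neutrophil precursors express it, read 117, 1993, 170 and 135 (wild type) against 645, 1337, 351 and 1016 (Irf4 null). In these lists Cd4, Hba-a1 and Gp6 fell under the filter on dim probe sets, reading at most 12.2, 9.63 and 79.6. With the mean of the 60 markers as a covariate the members' median was 0.17 and none was called, against 2.04% of all genes called higher and 1.25% lower (limma; 6 of 40 at an unadjusted p below 0.05 upward, against 9.82%). What part these cells have in the replication signal was not tested. Among B lineage lists, 3 of 6 plasma cell markers other than Irf4, the deleted gene, were called lower in Irf4 null (Jchain, Igha and Sdc1), and Prdm1, Xbp1 and Derl3 were not. The mean of the 6 was 9.98 to 11.04 in wild type and 7.53 to 7.75 in Irf4 null. Germinal centre markers were called lower for 2 of 6 genes (Bcl6 and Rgs13), with means of 8.01 to 8.50 and 7.05 to 7.61. Fas, Gcsam, S1pr2 and Mybl1 were not called. Precursor B cell markers were called lower for 3 of 6 genes (Vpreb3, Cd93 and Sox4), with overlapping means of 8.24 to 8.80 and 8.04 to 8.47. Rag1 (log2 fold change -0.97), Igll1 (0.19) and Vpreb1 (1.1) were not called. The background for these 3 lists was 1.7% of all genes called lower.

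**Figure D2:**
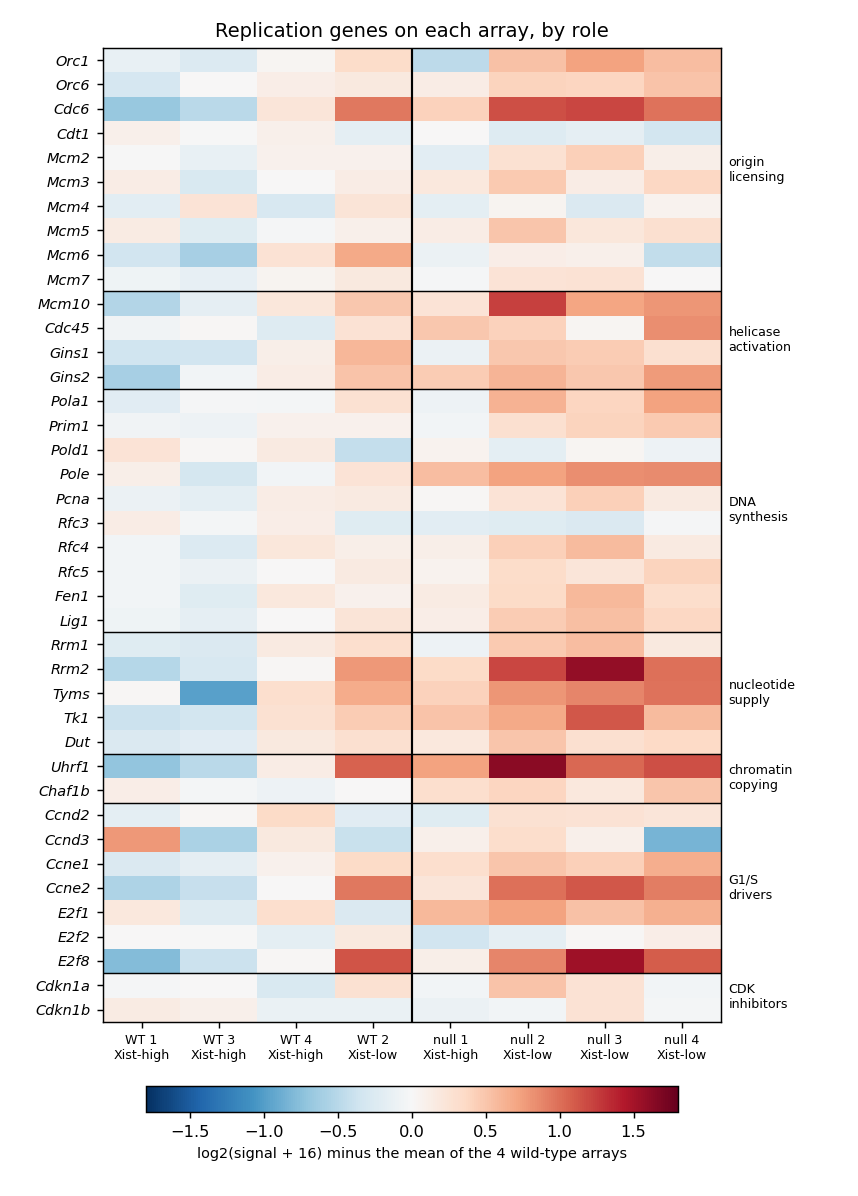
Each row is 1 of 40 replication genes, ordered by role, and each column 1 array. Colour gives log2(signal + 16) minus the mean of the 4 wild-type arrays. Cdc6, Rrm2, Uhrf1, Ccne2 and E2f8 are raised on wild-type array 2 as well as on Irf4 null arrays 2, 3 and 4, while Cdt1 and Rfc3 are below the wild-type mean there.

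Many genes of S phase carry E2F sites near their start, so the promoters were searched. The letters TTTCCCGC, TTTCGCGC, TTTGCCGC and TTTGGCGC, 4 versions of the E2F site, were looked for on both strands, counting overlapping matches, in RefSeq promoters of GRCm38.p6 that run from 250 bases before to 50 bases after a start. Promoters were matched by symbol for 35 of the 41 genes, and 13 of the 35 (37.1%) had a match, against 2.60% of 27025 genes with a promoter. Per start these were 13 of 43 (30.2%) and 744 of 32851 (2.26%). Of the other replication genes on the list described further on, 17 of 56 had a match. The 200 bases before the start are printed 5′ to 3′ for Uhrf1 and Cdc6, which had the largest log2 fold changes among members with a match, and for Mcm5 and Mcm6, which also hold matches and had log2 fold changes of 0.28 and -0.082. Capitals mark the matched letters.
Uhrf1, chr17:56304113-56304312 (+): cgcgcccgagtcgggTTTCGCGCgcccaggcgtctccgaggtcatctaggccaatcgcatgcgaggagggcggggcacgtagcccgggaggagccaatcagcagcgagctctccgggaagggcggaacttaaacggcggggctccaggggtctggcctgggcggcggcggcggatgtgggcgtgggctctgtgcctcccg
Cdc6, chr11:98907951-98908150 (+): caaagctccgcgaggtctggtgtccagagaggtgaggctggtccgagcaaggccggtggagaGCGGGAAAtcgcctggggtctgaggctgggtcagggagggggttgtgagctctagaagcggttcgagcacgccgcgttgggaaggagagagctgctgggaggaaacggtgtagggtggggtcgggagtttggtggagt
Mcm5, chr8:75109309-75109508 (+): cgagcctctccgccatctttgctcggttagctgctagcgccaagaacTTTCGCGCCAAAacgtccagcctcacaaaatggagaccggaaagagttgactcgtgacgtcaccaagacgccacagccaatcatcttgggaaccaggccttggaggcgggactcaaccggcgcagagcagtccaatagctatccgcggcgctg
Mcm6, chr1:128359706-128359905 (-): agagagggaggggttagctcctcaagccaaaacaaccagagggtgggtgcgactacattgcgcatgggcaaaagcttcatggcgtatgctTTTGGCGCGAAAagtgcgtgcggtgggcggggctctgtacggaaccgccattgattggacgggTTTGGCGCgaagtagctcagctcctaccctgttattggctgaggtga
Uhrf1 and Cdc6 held 1 match in this stretch, Mcm5 held 2 that overlap and Mcm6 held 3, of which 2 overlap. The 13 members with a match had a median log2 fold change of 0.28 (range -0.18 to 1.14), and the 21 tested members with a promoter but no match 0.34 (range -0.08 to 1.03). The ranges of members with and without a match overlapped. No match says only that these letters are not in the window.

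Origin licensing was covered by 10 genes, and none passed the test. Differences and log2 fold changes of single genes are Irf4 null minus wild type on the log2(signal + 16) scale, with ± the SE of the fit. Their median log2 fold change was 0.22, and 7 of the 10 lay above 0. Cdc6, the ATPase that helps to load the helicase, read 167, 551, 193 and 327 on wild-type arrays 1 to 4 and 375, 643, 663 and 560 on Irf4 null arrays 1 to 4. Wild-type array 2 lay inside the Irf4 null range, and the other 3 wild-type arrays lay below all Irf4 null arrays. The log2 fold change was 0.94 ± 0.32 (SE; limma, adjusted p = 0.154), and 0.45 with the Xist-high term (adjusted p = 0.408). Without wild-type array 2 it was 1.26 (adjusted p = 0.0101). Orc6, a subunit of the origin recognition complex, read 434, 612, 544 and 585 (wild type) against 593, 719, 713 and 778 (Irf4 null), a log2 difference of 0.36 ± 0.13 (adjusted p = 0.169). Orc1, its largest subunit, was dim and spread widely, at 79.1, 115, 72.2 and 91.2 (wild type) against 58.8, 134, 156 and 137 (Irf4 null), a log2 difference of 0.33 ± 0.27 (adjusted p = 0.594). Irf4 null array 1 was the lowest of all 8 arrays for Orc1, and the other Irf4 null arrays were the 3 highest.

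The 6 subunits of the Mcm2-7 helicase, a ring assembled from 1 copy of each, differed little. Mcm3 read 1682, 1670, 1265 and 1530 (wild type) against 1739, 2123, 1671 and 1977 (Irf4 null), a log2 difference of 0.29 ± 0.11 (limma, adjusted p = 0.215). Mcm5 read 3853, 3706, 3009 and 3457 (wild type) against 3831, 4959, 4011 and 4270 (Irf4 null), a log2 difference of 0.28 ± 0.10 (adjusted p = 0.175). For both, the groups overlapped by 1 pair of arrays. Mcm2 read 835, 889, 763 and 887 (wild type) against 733, 1024, 1135 and 910 (Irf4 null), a log2 difference of 0.15 (95% interval -0.13 to 0.44). Irf4 null array 1 was the lowest of all 8 arrays for Mcm2 and the other Irf4 null arrays were the 3 highest. Mcm7 had a log2 fold change of 0.13 (95% interval -0.086 to 0.34) and Mcm4 of -0.082 (-0.38 to 0.21). The other tested probe set of Mcm4 gave 0.20 ± 0.071, of opposite sign, so the direction for Mcm4 is not settled. Mcm6 varied most within wild type, at 1525, 3103, 1273 and 2310, while Irf4 null arrays lay between 1421 and 2104. Its log2 fold change was -0.082 (95% interval -0.62 to 0.45), 0.13 within the Xist-high arrays and -0.75 within the Xist-low arrays. Cdt1, the loading factor that is destroyed in S phase, ran the other way, with 6716, 5574, 6316 and 6764 (wild type) against 6334, 5384, 5642 and 5047 (Irf4 null). Its log2 fold change was -0.18 ± 0.089 (adjusted p = 0.345) and -0.058 with the Xist-high term. The 4 Xist-low arrays gave the 4 lowest Cdt1 signals.

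Helicase activation was covered by 4 genes, all above 0 with a median of 0.51, and none passed. Mcm10, which acts when the helicase starts to unwind, read 130, 278, 172 and 225 (wild type) against 234, 475, 326 and 349 (Irf4 null). Wild-type array 2 exceeded only Irf4 null array 1, and the log2 fold change was 0.75 ± 0.24 (limma, adjusted p = 0.135), 0.42 with the Xist-high term. Gins2 read 139, 317, 210 and 239 (wild type) against 305, 342, 312 and 383 (Irf4 null), a log2 difference of 0.59 ± 0.21 (adjusted p = 0.167). Again wild-type array 2 alone reached into the Irf4 null range. Its partner in the GINS complex, Gins1, read 222, 445, 224 and 310 in wild type, where array 2 was the highest of all 8 arrays, and 267, 410, 402 and 357 in Irf4 null (0.28; 95% interval -0.20 to 0.77). Cdc45, the third part of the active helicase, differed by 0.44 ± 0.18 on the log2 scale (adjusted p = 0.246), and its other tested probe set gave 0.084.

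DNA synthesis was covered by 10 genes, of which 8 lay above 0, with a median of 0.30. Pole rose, the one member to pass. It read 234, 259, 171 and 209 on wild-type arrays 1 to 4 and 325, 366, 400 and 404 on Irf4 null arrays 1 to 4. Every Irf4 null array lay above every wild-type array, and the log2 fold change was 0.74 ± 0.15 (limma, adjusted p = 0.0186), a 1.68-fold rise. With the Xist-high term it was 0.60 (adjusted p = 0.0654), within the Xist-high arrays 0.64 (adjusted p = 0.282) and within the Xist-low arrays 0.56 (adjusted p = 0.311). So the direction and most of the size held in both splits, and the call did not. Leaving out Irf4 null array 2, 3 or 4 or wild-type array 4 also ended the call, at adjusted p = 0.0559, 0.0534, 0.0681 and 0.0611, with log2 fold changes of 0.71 to 0.75. Pole was read from a single probe set.

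The other polymerase genes differed less. Pola1, the catalytic subunit of polymerase alpha, read 356, 502, 409 and 402 (wild type) against 389, 649, 546 and 698 (Irf4 null), a log2 difference of 0.41 ± 0.18 (limma, adjusted p = 0.26). Within the Xist-high arrays its log2 fold change was 0.00039 and within the Xist-low arrays 0.31. Prim1, the primase subunit that starts each fragment, read 1201, 1325, 1179 and 1320 (wild type) against 1215, 1532, 1667 and 1743 (Irf4 null), a log2 difference of 0.28 ± 0.11 (adjusted p = 0.234). For both genes Irf4 null array 1 lay within the wild-type range and the other 3 lay above it. Pold1, the catalytic subunit of polymerase delta, had a log2 fold change of -0.041 (95% interval -0.34 to 0.26), with wild-type array 2 the lowest of all 8 arrays at 1856. Pcna, the sliding clamp of the polymerases, read 9035, 10857, 8611 and 10683 (wild type) against 9896, 11523, 13133 and 10866 (Irf4 null). That is 0.21 ± 0.10 (adjusted p = 0.334; 95% interval -0.016 to 0.44), with Irf4 null array 1 below wild-type arrays 2 and 4. Among the subunits of the clamp loader, Rfc4 (0.32 ± 0.13) and Rfc5 (0.25 ± 0.10) lay above 0 and Rfc3 (-0.17 ± 0.11) below, with adjusted p of 0.223 to 0.477 (limma).

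Maturation of the lagging strand needs the flap nuclease Fen1 and the ligase Lig1. Fen1 read 1281, 1396, 1135 and 1516 (wild type) against 1462, 1689, 1998 and 1652 (Irf4 null), a log2 difference of 0.35 ± 0.12 (limma, adjusted p = 0.143). Lig1 read 671, 833, 627 and 706 (wild type) against 769, 970, 1033 and 920 (Irf4 null), a log2 difference of 0.37 ± 0.12 (adjusted p = 0.128). Each had a single pair of arrays out of order, wild-type array 4 above Irf4 null array 1 for Fen1 and wild-type array 2 above Irf4 null array 1 for Lig1. Without wild-type array 2 Lig1 had an adjusted p of 0.0358.

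**Figure D3:**
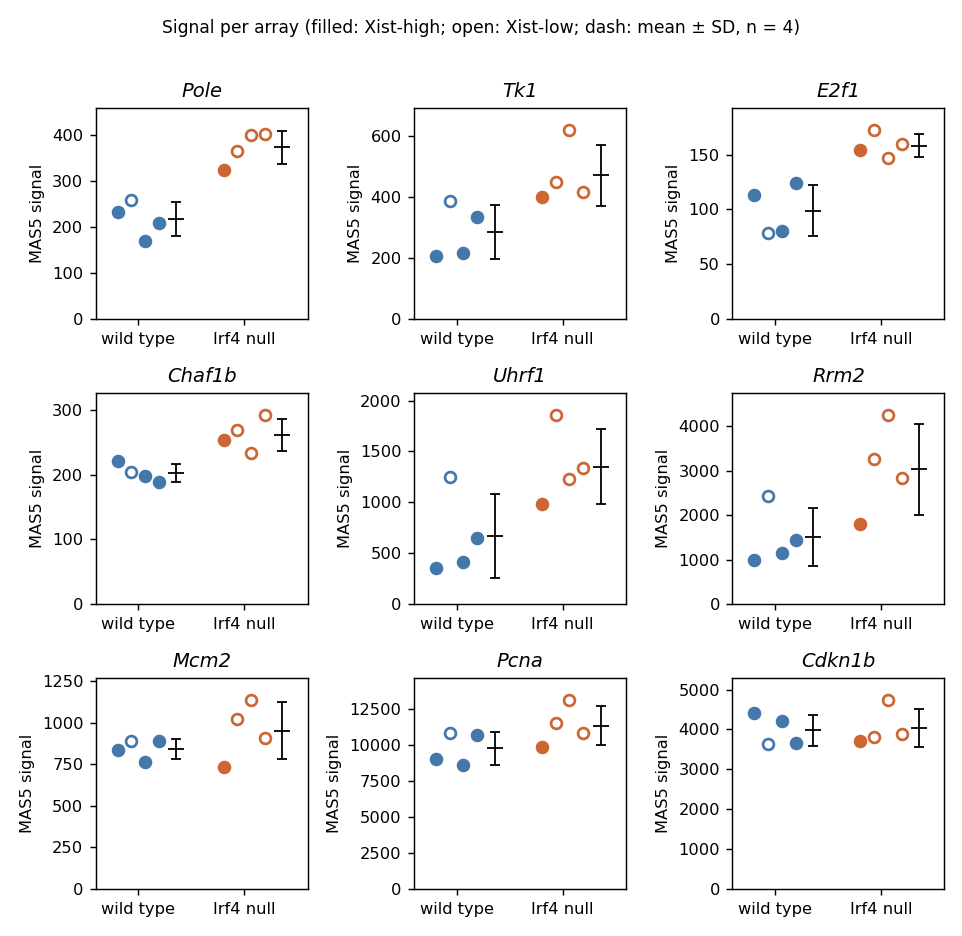
MAS5 signal (linear scale, axes from 0) of 9 replication genes on each array, wild type in blue and Irf4 null in orange, filled for Xist-high and open for Xist-low arrays, with the mean ± SD (n = 4) beside each group. The groups are separate for Pole, Tk1, E2f1 and Chaf1b, whereas for Uhrf1 and Rrm2 the open wild-type point lies among the Irf4 null points.

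The 5 genes of nucleotide supply all lay above 0, with a median of 0.72, and none passed. Rrm2, the regulated subunit of ribonucleotide reductase, which makes deoxyribonucleotides, read 989, 2437, 1153 and 1431 (wild type) against 1792, 3265, 4249 and 2831 (Irf4 null). Wild-type array 2 was above Irf4 null array 1 and below the other 3. The log2 fold change was 1.03 ± 0.29 (limma, adjusted p = 0.0874), and the 2 other tested probe sets gave 1.09 and 1.04. With the Xist-high term it was 0.54 (adjusted p = 0.125), and without wild-type array 2 it was 1.29 (adjusted p = 0.00861). The large subunit Rrm1 differed less, at 0.28 (95% interval -0.086 to 0.64). Tk1, the thymidine kinase of cycling cells, read 206, 385, 215 and 335 (wild type) against 400, 450, 617 and 415 (Irf4 null). The groups did not overlap, and the log2 fold change was 0.72 ± 0.21 (adjusted p = 0.0988).

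Dut, which removes dUTP so that uracil is kept out of DNA, had a mean ± SD of 1945 ± 370 (wild type) and 2427 ± 221 (Irf4 null), n = 4 each (0.33 ± 0.13; limma, adjusted p = 0.209). Tyms, the thymidylate synthase, was near the dim level of 42.9, with 40.5, 72.6, 12.4 and 52.6 (wild type) against 58.8, 80.9, 87.2 and 93.7 (Irf4 null), a log2 difference of 0.77 ± 0.33 (adjusted p = 0.262), so its size is uncertain. A brighter probe set annotated to both Tyms and the pseudogene Tyms-ps, which cannot be given to 1 gene, read 201, 502, 209 and 305 (wild type) against 371, 536, 540 and 465 (Irf4 null), a log2 difference of 0.70 ± 0.25 (adjusted p = 0.174). Both probe sets had their highest wild-type signal on array 2.

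Copying of chromatin was represented by Uhrf1 and Chaf1b. Uhrf1, which recruits the maintenance DNA methyltransferase to newly copied DNA, had the largest log2 fold change of the 40 members. It read 354, 1252, 416 and 651 (wild type) against 985, 1855, 1230 and 1333 (Irf4 null), so wild-type array 2 lay within the Irf4 null range. The log2 fold change was 1.14 ± 0.34 (limma, adjusted p = 0.099), and its other tested probe set also gave 1.14. It was 1.08 within the Xist-high arrays and 0.21 within the Xist-low arrays, and the difference between these was not called (limma, interaction, adjusted p = 0.705). Without wild-type array 2 it was 1.49 (adjusted p = 0.00283). Chaf1b, a subunit of the histone chaperone that loads histones behind the fork, read 222, 204, 198 and 189 (wild type) against 254, 269, 233 and 292 (Irf4 null). The groups did not overlap, and wild-type array 2 was not raised. The difference of 0.34 ± 0.12 (adjusted p = 0.18) was 0.32 with the Xist-high term.

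The 7 drivers of the G1/S transition had a median of 0.47, with 5 above 0 and none past the threshold. E2f1, an activating E2F factor, read 113, 78.9, 80.1 and 124 (wild type) against 154, 172, 147 and 160 (Irf4 null). The groups did not overlap, and wild-type array 2 was the lowest of all 8 arrays. In its other tested probe set, which was dimmer, array 2 was instead the highest wild-type array, at 94.6. Its log2 fold change was 0.62 ± 0.18 (limma, adjusted p = 0.0888) and 0.69 with the Xist-high term (adjusted p = 0.131), and the dimmer probe set gave 0.85 ± 0.31. Averaged over its tested probe sets E2f1 passed, at 0.74 (limma, adjusted p = 0.0361), in a fit for which the share of all genes called was not counted. E2f8, a repressive E2F factor that is itself an E2F target, read 104, 437, 142 and 194 (wild type) against 206, 362, 577 and 423 (Irf4 null), a log2 difference of 0.90 ± 0.39 (adjusted p = 0.271). Here wild-type array 2 exceeded 3 of the 4 Irf4 null arrays, and the log2 fold change was 0.26 with the Xist-high term. E2f2, another activating factor, had a log2 fold change of -0.090 (95% interval -0.35 to 0.17).

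Cyclin E, the partner of Cdk2 at the start of S phase, is encoded by Ccne1 and Ccne2. Ccne1 read 277, 432, 299 and 357 (wild type) against 418, 483, 460 and 541 (Irf4 null), a log2 difference of 0.47 ± 0.15 (limma, adjusted p = 0.117), with 1 pair of arrays out of order. Ccne2 read 203, 604, 225 and 308 (wild type) against 358, 623, 679 and 594 (Irf4 null), a log2 difference of 0.81 ± 0.31 (adjusted p = 0.195), with wild-type array 2 inside the Irf4 null range. The D cyclins, which act earlier in G1, did not differ detectably. Ccnd2, the main D cyclin induced by B cell receptor signals, read 2362, 2311, 2707 and 3376 (wild type) against 2283, 3205, 3183 and 3080 (Irf4 null). Its log2 fold change was 0.13 (95% interval -0.18 to 0.44), and its 6 other tested probe sets gave -0.20 to 0.10. Ccnd3 read 2042, 895, 795 and 1341 (wild type) against 1263, 1482, 1256 and 657 (Irf4 null), a log2 difference of -0.082 (95% interval -0.75 to 0.59), and its 2 other tested probe sets gave 0.22 and 0.12. With that spread neither direction can be given for Ccnd3.

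The CDK inhibitors, which hold cells in G1, did not differ detectably. Cdkn1a, which encodes p21, read 186, 232, 190 and 154 (wild type) against 181, 275, 230 and 182 (Irf4 null), a log2 difference of 0.17 (95% interval -0.21 to 0.55). Cdkn1b, which encodes p27 and is abundant in resting lymphocytes, read 4406, 3642, 4218 and 3668 (wild type) against 3699, 3819, 4734 and 3887 (Irf4 null), a log2 difference of 0.017 (95% interval -0.20 to 0.23). For both genes the groups overlapped, with the lowest signal on a wild-type array and the highest on an Irf4 null array.

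**Figure D4:**
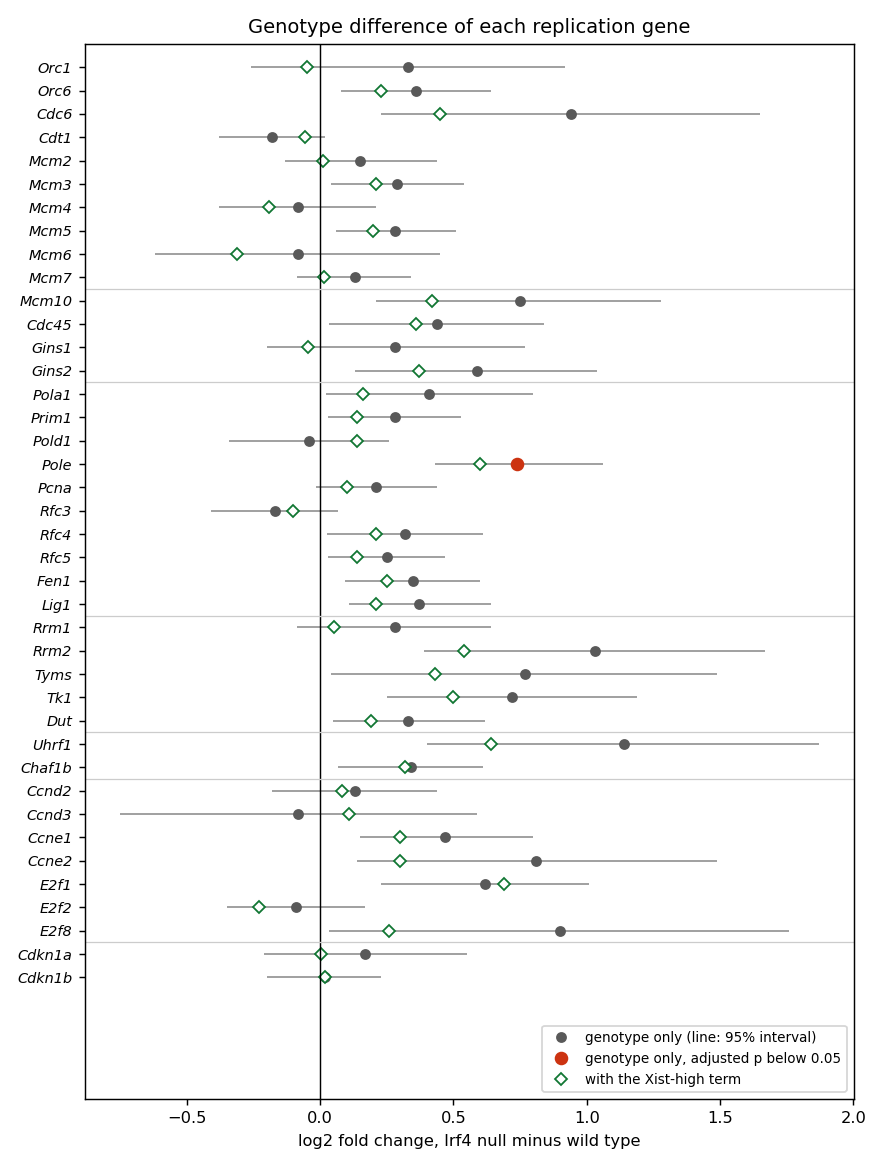
Log2 fold change (Irf4 null minus wild type) of each of the 40 replication genes with its 95% interval, in the same order of roles. Filled circles are from the fit with genotype only, red where the adjusted p was below 0.05 (Pole), and open diamonds from the fit with the Xist-high term. Grey lines are the intervals of the circles. Most circles lie to the right of 0, and most diamonds lie closer to 0 than the circle of the same gene.

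The groups were separate, with all 4 Irf4 null arrays above all 4 wild-type arrays, for Pole, Tk1, Chaf1b and E2f1. That is 10.0% of the members, against 7.13% of all genes, and no member had all Irf4 null arrays below, against 5.71%. The members also differed between the splits themselves. With genotype in the same fit, 4 were called higher in Xist-low than in Xist-high arrays, and none was called lower (limma; 19 and 2 at an unadjusted p below 0.05). The background was 2.92% and 0.263% of all genes called, and 10.1% and 6.15% at the unadjusted p. In Xist-high minus Xist-low terms, Rrm2 was -0.98 (adjusted p = 0.0106), Ccne2 -1.03 (adjusted p = 0.0111), E2f8 -1.28 (adjusted p = 0.0168) and Cdc6 -0.98 (adjusted p = 0.0488). None of the 40 members had a genotype effect that was called different between the splits, and neither had any of the 11798 genes, a background of 0.0% (limma, interaction; 2 members at an unadjusted p below 0.05, both downward, where 2.77% of genes were so downward and 3.68% upward).

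Probe sets of the same gene mostly gave the same sign. Of 37 other tested probe sets, which belonged to 24 members, 30 had the sign of the probe set chosen and 7 the opposite, and none was called. The 7 belonged to Mcm4, Mcm6, Ccnd2, Ccnd3, E2f2 and Cdkn1b, whose chosen probe sets all had 95% intervals that span 0.

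The rest of the pathway was read from a list of 71 other replication and G1/S genes, of which 68 were tested. Of these 2 rose, none fell and 66 did not pass, close to the background of 2.67% and 1.7%. The median was 0.12, against 0.025 over all genes. Of the 68, 17 had an unadjusted p below 0.05 upward and 3 downward (limma). The background for these was 11.9% and 8.48%, so the upward share lay above it and the downward share below. Gmnn, which encodes geminin, the inhibitor of Cdt1 in S and G2 phase, rose by 0.72 ± 0.14 (limma, adjusted p = 0.0194). It read 966, 1427, 898 and 1013 (wild type) against 1484, 1850, 1898 and 1809 (Irf4 null), with no overlap, and it passed with the Xist-high term as well (0.50; adjusted p = 0.0207). Within the Xist-high arrays it was 0.62 (adjusted p = 0.0568) and within the Xist-low arrays 0.37 (adjusted p = 0.246), not called in either. The call ended in 9 of 23 alternatives, among them the fits without Irf4 null array 2, 3 or 4 or without wild-type array 1, 3 or 4, at adjusted p of 0.0548 to 0.068 (log2 fold changes of 0.64 to 0.70). Rfc2, a subunit of the clamp loader, rose by 0.33 ± 0.076 (adjusted p = 0.0409), from 1461, 1410, 1460 and 1454 to 1911, 1942, 1780 and 1663. Wild-type array 2 was the lowest array for Rfc2. Its call ended in 13 of 23 alternatives, the Xist-high term (0.36, adjusted p = 0.0605) among them, and so did leaving out any array other than Irf4 null array 4 or wild-type array 2 (adjusted p of 0.076 to 0.124). Not called with the smallest p after these were Tfdp1, the dimer partner of the E2F factors (0.66 ± 0.16; adjusted p = 0.0511), and Dctpp1, which clears modified dCTP (0.40 ± 0.11; adjusted p = 0.0866).

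The genes named next were chosen after their values were seen. The 7 fork protection genes had a median of 0.50, with Clspn at 0.89 ± 0.28 (limma, adjusted p = 0.118) and Chek1, the checkpoint kinase, at 0.69 ± 0.22 (adjusted p = 0.121). The other origin recognition subunits Orc2, Orc3, Orc4 and Orc5 lay between -0.087 and 0.17. The 10 tested G1/S inhibitors, such as Rb1 and Rbl2, had a median of -0.023. Mitosis genes, listed for comparison, had a median of 0.78 over 15 genes with 1 called higher, Nusap1 (background 2.67%). That median was 0.28 with the Xist-high term, 0.48 in Xist-high arrays alone, 0.13 in Xist-low arrays alone and 0.17 given the marker covariate. Without wild-type array 2, 12 of the 15 were called higher, against a background of 7.08%. In that fit genotype and the Xist split are largely confounded. Their median per array was 0.83 on wild-type array 2 and 0.22 on Irf4 null array 1.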

How the data were processed

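Gene expression was measured on 8 Affymetrix arrays of 45101 probe sets, 1 per sample. The deposited values are MAS5 intensities, per the submitters' processing notes, which name neither version nor scaling target. The trimmed mean was 500.003 on every array, correlations between arrays were 0.96 to 0.982 across probe sets. Precision is set by how few arrays there were. Gene symbols came from GEO's annotation of the platform, updated through a RefSeq table of GRCm38.p6 (34958 had 1 symbol, 932 several and 9211 are unnamed here). Values were taken as log2(signal + 16), so fold changes of dim genes are understated. The lowest 40% by mean were dropped (at or below a signal of 42.9). The remaining 27022 were fitted with limma 3.58.1 (lmFit, eBayes with trend) in R 4.3.3, with Benjamini-Hochberg adjustment. A probe set was called at an adjusted p below 0.05. The code was tested on simulated data. Xist-high means an Xist signal over 1000.

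The members and lists were chosen with earlier results of these data known. Per-array signals were due for every member called, the member with the smallest p of each role and 8 set members. Of the other replication genes, those called and the smallest p up to 4 genes were to be named. Per-array signals are given here only for those called. Alternatives were other pseudocounts, filters, normalizations, variance models, array weights, a replicate block, a stricter threshold, a mean over probe sets, an Xist-high term, fits within each split, a marker covariate and leaving out each array. Detection calls were not used here. Figures were drawn with matplotlib 3.10.9.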

Additional observations from a re-analysis of the deposited data

Results flagged for a closer look

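Each of the 40 members was looked at in both genotypes, 80 groups of 4 arrays in all, for an array whose gap to its nearest neighbour took up more than 0.829 of the group's range on the log2(signal + 16) scale. Chance gives about 1 such group in 20, and 2 of the 80 were found, which is below that rate. For Orc1, Irf4 null array 1 was the lowest by 0.836 of that range, with a signal of 58.8 against 134 to 156 on the other 3 Irf4 null arrays. For Ccnd2, Irf4 null array 1 was the lowest by 0.883 of that range, with a signal of 2283 against 3080 to 3205. In both cases the array was the one Xist-high array among the Irf4 null arrays.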

How the results depend on the processing

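The direction of the members' median held under every alternative run, and the calls were few and not stable. Against 950 probe sets called, 1 member higher and 2 other replication genes higher, the counts were 1746, 8 and 8 with array weights (background 5.37% of genes higher). Fits within the Xist-high arrays gave 255, 0 and 0, with a members' median of 0.15 against 0.32, and within the Xist-low arrays 264, 0 and 0. An adjusted p below 0.01 gave 330, 0 and 0. No variance trend gave 555 probe sets and 0 other genes. The Xist-high term and the marker covariate each gave 0 members and 1 other gene. A common median gave 1 other gene. The mean of all probe sets gave 2 members, but the share of all genes called in that fit was not counted, so that count has no background. Leaving out 1 array at a time gave 466 to 2172 probe sets, 0 to 12 members and 0 to 9 other genes higher, 0 to 1 other genes lower, and medians of 0.25 to 0.39. The highest counts came without wild-type array 2, a fit in which genotype and the Xist split are largely confounded. Without Irf4 null array 1, a fit largely confounded with the split as well, 2 members were called (background 2.21%), with the highest median, 0.39. Without Irf4 null array 2, 3 or 4 or wild-type array 4 no member was called (backgrounds 1.47% to 2.02%). Of the 40 members 13 changed sign under at least 1 alternative. Within the Xist-high arrays 6 did, namely Orc1 (-0.37), Mcm2 (-0.17), Mcm6 (0.13), Prim1 (-0.02), Ccnd2 (-0.29) and Cdkn1b (-0.14). Within the Xist-low arrays 6 others did, among them Gins1 (-0.19), and with the Xist-high term 4 did. None of these 13 was called in any alternative. The cause of these shifts was not tested.

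With the replicate number as a block, 5 members (background 3.59%) and 6 other replication genes were called higher, and 1168 probe sets in all. Whether the numbers pair the samples is not settled. Deviations of same-numbered arrays correlated at 0.237 for number 1 and 0.277 for number 2, the highest of all pairs. For numbers 3 and 4 they correlated at -0.0301 and -0.0807, so not every array correlated best with its own number. Both arrays numbered 1 were Xist-high and both numbered 2 were Xist-low.

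The limits are 4 arrays a group, a split by Xist that leaves 1 array of a genotype on each side, and intervals that for many members span both no difference and a rise. Bulk RNA gives no count of cycling cells.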

Other observations

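Ccnd2 and Pold1 were the members with an unadjusted p below 0.05 for a genotype effect that differed by split, and neither was called. Ccnd2 had a log2 fold change of -0.29 within the Xist-high arrays and 0.45 within the Xist-low arrays. All 3 Xist-low Irf4 null arrays lay above wild-type array 2 for 24 of 40 members, against 31.0% of all genes tested. Irf4 null array 1 lay above all 3 Xist-high wild-type arrays for 19 members (47.5%), against 33.1% of all genes.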
